A study of Homo sapiens with 7 samples.

Results

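Distal nucleosomes with H3K27ac only were the nucleosome positions of HepG2 cells that carried a called peak of H3K27ac and of no other histone mark examined, with a midpoint over 10 kb from both ends of every named locus in the expression table. There were 30408 such members among 14217405 nucleosome positions in all. They made up 75.1% (95% interval 74.7 to 75.5) of the 40503 positions with H3K27ac only and 31.7% (31.4 to 32.0) of the 95886 positions with H3K27ac. The rule used the peak lists and the distance to the ends of loci. The marks on the members themselves and their distance from these ends are therefore given as descriptions.

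The data came from HepG2, a human liver cancer cell line, cultured without any labelled treatment, with 7 samples and 1 sample per assay. These were RNA-Seq, native MNase-Seq, in which chromatin without crosslinking is digested to nucleosomes, and ChIP-Seq of H3K27ac, of the other activation marks H3K4me3 and H3K9ac, and of the repressive marks H3K27me3 and H3K9me3. The RNA-Seq values were listed as FPKM (fragments scaled to transcript length and library size) in 2 columns (run 1 and run 2 below), and whether they came from separate cultures is not given in the sources used here. No group of samples could be compared, so no P value was computed, and 95% intervals are exact binomial (Clopper-Pearson) intervals of counting error only, which are too narrow wherever neighbouring positions are not independent. The peak lists hold no heights or read counts, so the depth behind a position is unknown, and "no mark" here means that no peak was listed.

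Acetylation of histone H3 at lysine K27 is added by the coactivators EP300 and CREBBP and is found at active promoters and active enhancers. Enhancers are regulatory DNA elements that can act on a promoter over long distances. H3K4me3 is typical of promoters, H3K9ac accompanies active chromatin at both, and H3K27me3 and H3K9me3 mark repressed chromatin. Acetylated nucleosomes far from genes are therefore often used as a map of candidate enhancers, although a peak alone does not show that an element is active.

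The line expressed genes of liver cells. ALB, the main plasma protein, was listed at an FPKM of 9933 (run 1) and 10088 (run 2), and AFP, its fetal relative, had 3732 and 3864. APOA1, the main protein of high-density lipoprotein, had 1404 and 1450. The leukocyte genes PTPRC and CD3E were listed at 0 in both runs, the endothelial gene PECAM1 at 0.117 and 0.156, and the collagen gene COL1A1 at 0.141 and 0.188. Liver genes were thus high and these genes of other cell types near 0, with the exception of 4 of the 11 markers of other cell types examined. KRT19, a bile duct keratin, had 113 and 106, ACTA2, a smooth muscle actin, had 34.1 and 33.6, CD14, a monocyte receptor, had 2.91 and 2.16, and COL1A2, another collagen, had 1.32 and 0.996. For ACTA2, the listed coordinates are shared with other loci. All samples came from this cell line, and why these genes were listed as expressed in it was not tested.

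H3K27ac stood alone at most positions with H3K27ac over 10 kb from the ends of named loci, many of which lay inside a locus. Of the 47029 distal positions with H3K27ac, 64.7% (64.2 to 65.1) carried no other mark, 20.7% (20.3 to 21.1) carried the trivalent combination H3K4me3/H3K9ac/H3K27ac, 11.5% (11.2 to 11.8) carried H3K9ac/H3K27ac and 2.90% (2.75 to 3.06) carried H3K4me3/H3K27ac. Within 10 kb of a named end, taken as a whole, the order of H3K27ac only and trivalent was the opposite. There, 20.7% (20.3 to 21.02) of 48857 positions with H3K27ac carried it alone and 67.6% (67.2 to 68.0) were trivalent. The order did not change at the limit itself. Within 2 kb there were 26296 trivalent and 3151 H3K27ac-only positions, and from 2 to 5 kb 3910 and 2985. From 5 to 8 kb there were 1840 and 2469, and from 8 to 10 kb 983 and 1490. Any repressive mark was found together with H3K27ac at 111 of the 47029 distal positions. These marks were rare in distal chromatin in general. Among 11714364 distal positions, 19417 carried H3K27me3 only and 30237 carried H3K9me3 only.

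Members lay in company. Another position with H3K27ac lay within 1 kb, midpoint to midpoint, of 25381 members, or 83.5% (83.0 to 83.9), whereas this was so for 1.19% (1.18 to 1.20) of the distal positions with no mark. The share was higher still in the other distal classes with H3K27ac, at 94.8% (94.3 to 95.2) of trivalent, 94.0% (93.3 to 94.6) of H3K9ac/H3K27ac and 90.5% (88.8 to 92.0) of H3K4me3/H3K27ac positions, so that members had such company least often of these 4 classes. H3K4me3 or H3K9ac was listed within 1 kb of 30.7% (30.2 to 31.2) of the members, against 0.915% (0.909 to 0.920) of the distal positions with no mark. The distal trivalent positions had H3K4me3 or H3K9ac on another position within 1 kb in 97.7% (97.4 to 98.0) of cases and the distal H3K9ac/H3K27ac positions in 76.1% (74.9 to 77.2). Members thus had other activation marks nearby less often than these classes and more often than positions with no mark, by differences much wider than the intervals.

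Repressive marks were scarce around members. H3K27me3 was within 1 kb of 29 members, or 0.0954% (0.0639 to 0.137), and of 1.48% (1.47 to 1.49) of the distal positions with no mark. H3K9me3 was within 1 kb of 188 members, or 0.618% (0.533 to 0.713), and of 2.23% (2.22 to 2.23) of those positions. The share with H3K9me3 nearby overlapped in its interval with that of distal trivalent positions, at 0.781% (0.616 to 0.976). At distal H3K9ac/H3K27ac positions it was lower, at 0.277% (0.155 to 0.457). For H3K27me3 the shares were 0.0616% (0.0226 to 0.134) of trivalent and 0.0554% (0.0114 to 0.162) of H3K9ac/H3K27ac positions, with intervals that overlap that of members. The scarcity was thus not particular to members.

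Where the neighbour of a member in the list of positions carried a mark, it was most often H3K27ac only, although most neighbours carried none. The next position on the higher-coordinate side was H3K27ac only for 40.3% of members, H3K9ac/H3K27ac for 5.11%, trivalent for 1.16% and without any mark for 52.1%. At an offset of 5 positions the share with H3K27ac only was 16.1% and at 10 positions it was 6.44%. Around distal trivalent positions, the next position was trivalent in 57.4% of cases and H3K27ac only in 3.87%, and at an offset of 10 positions 1.41% were trivalent. The share of like neighbours was therefore lower for members at the nearest offset and higher at the farthest. The plot of neighbouring marks shows both profiles.

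**Figure D1:**
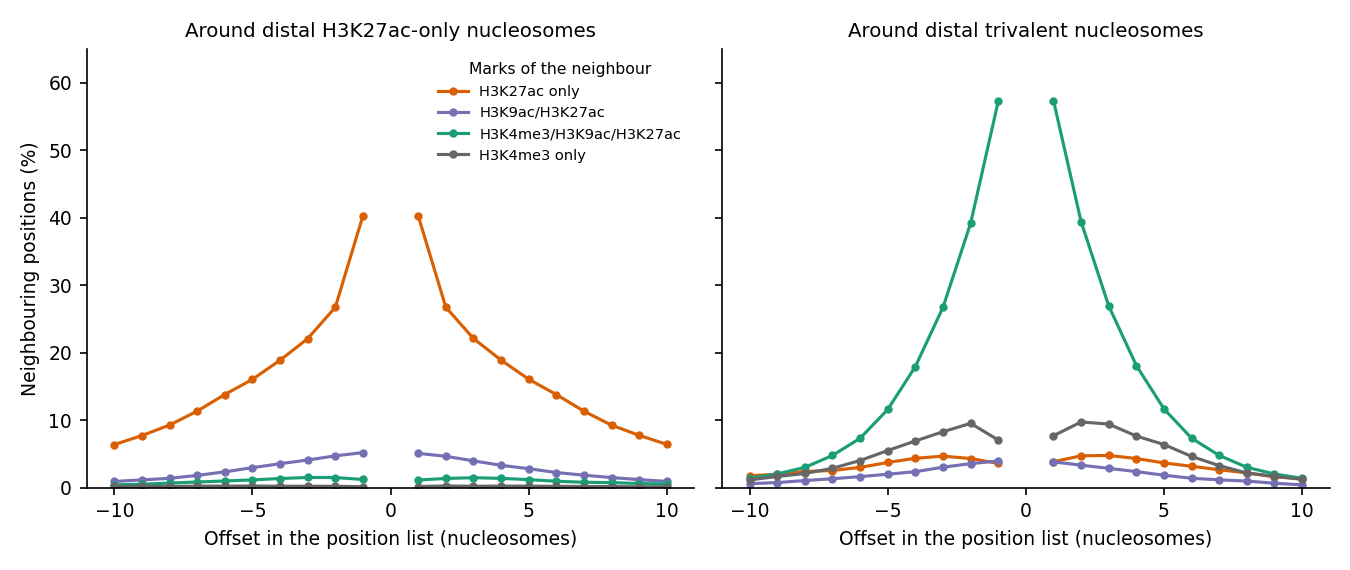
Share of positions (vertical axis, %) with a given combination of marks at each offset in the list of nucleosome positions (horizontal axis, from 10 positions below to 10 above), around distal H3K27ac-only positions on the left and distal trivalent positions on the right. Around members, H3K27ac only was the most frequent marked neighbour at every offset shown and was at 40.3% next to them and 6.44% at 10 positions, whereas trivalent neighbours were at 57.4% and 1.41% around trivalent positions.

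Unbroken stretches were short. The members formed 18165 runs of directly adjacent members, of which 11351 held a single member, 3932 held 2 and 1550 held 3. In all, 62.7% (62.1 to 63.2) of the members had another member directly beside them. Listed positions can overlap. This was so for 23.04% (22.7 to 23.4) of the pairs of a member and a neighbouring position, marked or not. The share was 23.3% at distal positions with no mark and 14.7% at distal trivalent positions. Neighbour, run and domain counts are therefore counts of listed positions, which need not be separate nucleosomes. How many adjacent members overlap was not tested. The longest run, of which there were 2, had 13 members.

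Members were next joined into domains, in which consecutive members have midpoints at most 10 kb apart. There were 8639 domains with a median of 2 members and a maximum of 20. A single member made up 3043 domains, or 35.2% (34.2 to 36.2), which held 10.01% of the members. The 370 domains with 11 to 20 members were 4.28% of the domains and held 15.4% of the members, with a median span of 7560 bp. H3K4me3 or H3K9ac lay inside or within 1 kb of 20.2% (18.8 to 21.6) of the domains with 1 member, 43.4% (41.4 to 45.5) of those with 3 to 5 and 64.1% (58.9 to 68.9) of those with 11 to 20. Larger domains also cover more positions, and the part of this in the order was not tested. The order was the reverse for lying inside a named locus, which was so for the centre of 68.6% (66.9 to 70.3) of the domains with 1 member and 48.6% (43.4 to 53.9) of those with 11 to 20.

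Members could be divided by their surroundings into 3 kinds. The most frequent had other H3K27ac but neither H3K4me3 nor H3K9ac within 1 kb (16286 members, 53.6%), followed by those with H3K4me3 or H3K9ac within 1 kb (9327) and those with no activation mark at all within 1 kb (4795, or 15.8%). The last kind lay inside a named locus most often, at 69.1% (67.8 to 70.4), against 62.5% (61.7 to 63.2) and 55.5% (54.5 to 56.6) for members with other H3K27ac only and with H3K4me3 or H3K9ac nearby. It also had a repressive mark within 1 kb more often, at 1.38% (1.07 to 1.75), against 0.669% (0.550 to 0.807) and 0.450% (0.325 to 0.608). For the locus that held or lay nearest to a member, the highest FPKM was taken where there were several. Its median was 12.03 for members with no activation mark nearby, 11.4 for those with other H3K27ac only and 11.4 for those with H3K4me3 or H3K9ac nearby. The share with an FPKM of at least 1 was 85.0% (84.0 to 86.0), 81.8% (81.2 to 82.4) and 81.7% (80.9 to 82.4), so the isolated members did not lie in or next to less expressed loci.

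The native nucleosome map around members had nearly the median spacing of unmarked chromatin and slightly more wide gaps. The median distance from the start of a member to the start of the next position on either side was 180 bp, as it was for distal positions with no mark. Between positions that do not overlap, it was 197 bp for members and 200 bp for positions with no mark. The 10th and 90th percentiles were 118 and 305 bp for members and 117 and 295 bp for positions with no mark. At distal trivalent positions the median was 205 bp and the 90th percentile 430 bp. Distances of 300 bp or more, which leave room between positions, were 10.8% (10.6 to 11.05) of those at members, 9.56% (9.55 to 9.57) at positions with no mark, 14.1% (13.4 to 14.7) at H3K9ac/H3K27ac positions and 24.9% (24.3 to 25.5) at trivalent positions. Members with H3K4me3 or H3K9ac within 1 kb had 12.1% (11.6 to 12.5), against 9.93% (9.60 to 10.3) for members with other H3K27ac only. Members with no activation mark within 1 kb had 11.3% (10.7 to 11.96). This interval overlapped the first and lay above the second, so wide gaps were not particular to members with H3K4me3 or H3K9ac nearby. The map holds positions without occupancy, so how firmly they were occupied was not measured.

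Members reached farther from the ends of named loci than distal trivalent nucleosomes did. Their median distance to the nearest named end was 44.3 kb, with a 10th percentile of 14.6 kb and a 90th percentile of 177 kb, against a median of 29772.5 bp for distal trivalent positions and 79433 bp for distal positions with no mark. The nearest member was 10001 bp away. Across the limit of the rule the density hardly moved, with 3.67 H3K27ac-only positions per 1000 positions (3.49 to 3.86) from 8 to 10 kb and 3.55 (3.36 to 3.75) from 10 to 12 kb. It was 3.77 (3.70 to 3.85) from 20 to 50 kb, 3.23 (3.15 to 3.30) from 50 to 100 kb, 2.08 (2.02 to 2.14) from 100 to 200 kb and 0.356 (0.316 to 0.399) from 500 to 1000 kb. The trivalent density was 43.2 per 1000 (42.7 to 43.7) within 2 kb of a named end, 2.17 (2.02 to 2.32) from 10 to 12 kb and 0.379 (0.353 to 0.407) from 100 to 200 kb. Between 10 and 50 kb the H3K27ac-only density thus differed little from that just inside the limit, while the trivalent density was lower at each step outward. H3K9me3 had the opposite order to both and was higher with distance, from 1.71 per 1000 (1.58 to 1.85) at 10 to 12 kb to 4.45 (4.31 to 4.59) at 500 to 1000 kb.

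**Figure D2:**
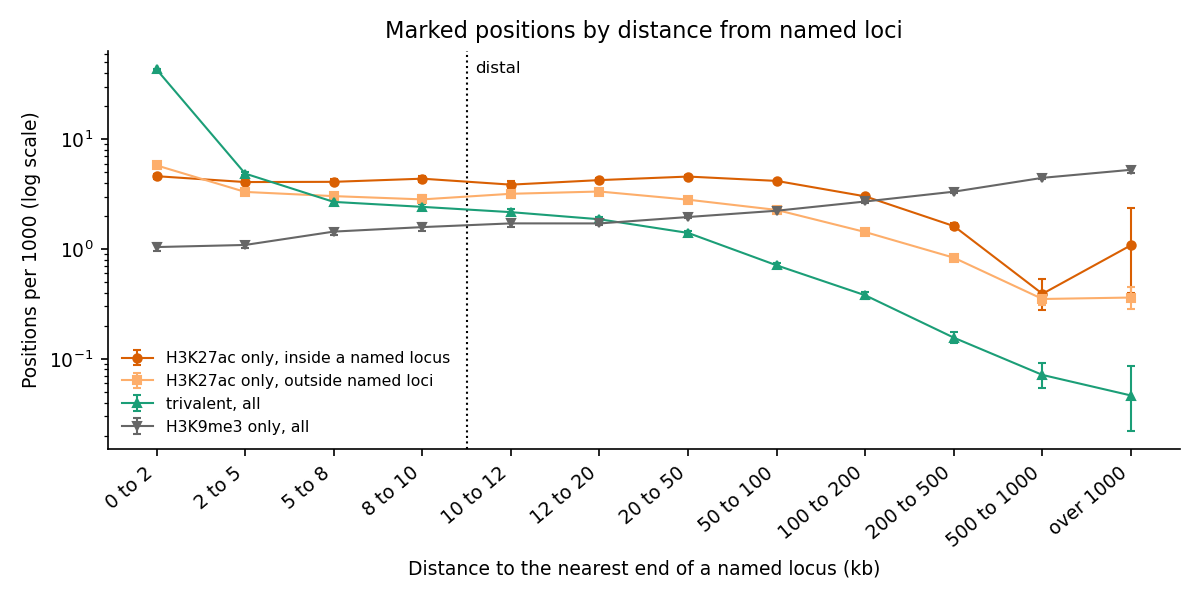
Positions with a given mark combination per 1000 nucleosome positions (vertical log axis) by distance to the nearest end of a named locus (horizontal axis, kb), with 95% intervals, and a dotted line at the limit of 10 kb. From 20 to 50 kb, H3K27ac only was at 4.57 per 1000 inside named loci and 2.81 outside them, whereas trivalent positions, drawn without this division, were at 1.40 in all (2.003 inside and 0.679 outside) and were lower at every greater distance.

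Members were found inside genes more often than distal chromatin in general. Of the members, 18672, or 61.4% (60.9 to 62.0), lay inside a named locus, as positions in long loci can be over 10 kb from both ends. For all distal positions the share was 42.6% (42.56 to 42.62), for distal trivalent positions 75.4% (74.6 to 76.3) and for distal H3K9me3-only positions 28.7% (28.1 to 29.2). It was 61.0% (58.4 to 63.6) at distal H3K4me3/H3K27ac, 62.1% (60.5 to 63.7) at H3K4me3/H3K9ac and 53.5% (52.2 to 54.8) at H3K9ac/H3K27ac positions. The excess over distal chromatin in general was thus not particular to members. Coordinates in the table often span several overlapping loci (8394 of 23303 named loci share theirs with another), so that "inside" can mean inside such a joined stretch.

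Members inside named loci lay mostly in expressed ones. Where several named loci held a position, the highest FPKM among them was taken. A silent gene can therefore stand under the value of a locus that overlaps it. Of the members inside named loci, 90.5% (90.03 to 90.9) lay in a locus with an FPKM of at least 1, against 58.0% (57.97 to 58.05) of all distal positions inside named loci. In loci under an FPKM of 0.1 there were 0.599 members per 1000 distal positions (0.562 to 0.637), in loci from 0.1 to 1 there were 1.79 (1.67 to 1.92), from 1 to 10 there were 4.71 (4.59 to 4.83), from 10 to 100 there were 6.62 (6.49 to 6.75) and at 100 or more there were 8.18 (7.65 to 8.74). No neighbouring intervals in this order overlapped. Trivalent positions had the same order with a steeper course, from 0.0393 (0.0304 to 0.0501) to 7.31 (6.80 to 7.83) per 1000.

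Outside named loci, where the nearest locus was taken (the highest FPKM if several shared the nearest end), the course was flatter. There, 69.2% (68.4 to 70.1) of the members were nearest to a locus with an FPKM of at least 1, against 39.5% (39.50 to 39.58) of all distal positions outside named loci. The density was 0.730 per 1000 (0.702 to 0.760) next to loci under 0.1 and 4.97 (4.62 to 5.34) next to loci at 100 or more. Next to loci from 0.1 to 1 it was 1.74 (1.64 to 1.85), about the density inside such loci, and next to loci from 10 to 100 it was 3.62 (3.52 to 3.72), below the 6.62 inside them. Counted as domains, with the first position of each, the order was kept, from 0.157 to 2.58 per 1000 inside loci and from 0.188 to 1.32 outside them. H3K9me3 only showed the reverse order, from 2.44 to 0.905 per 1000 inside loci.

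**Figure D3:**
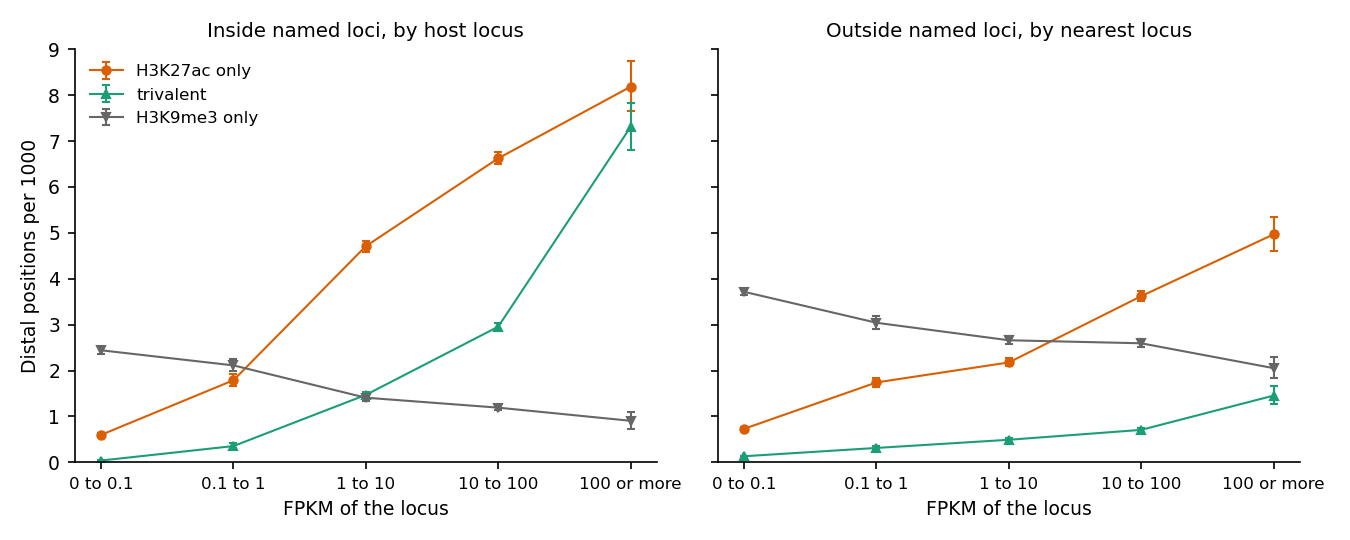
Positions of a mark combination per 1000 distal positions (vertical axis) by the FPKM of the locus that holds them (left) or lies nearest to them (right), with 95% intervals. Where several loci did, the highest FPKM was taken. Members were at 0.599 per 1000 in loci under an FPKM of 0.1 and 8.18 in loci at 100 or more, and at 0.730 and 4.97 outside loci.

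Seen from the genes, 10595 of 20261 named genes, or 52.3%, had at least 1 member inside the locus or within 100 kb of either end. Of the 10505 genes with an FPKM of at least 1 the share was 65.3%. The median FPKM was 0.0919 (0.0796 to 0.107) for the 9666 genes with 0 members, 4.07 (3.64 to 4.44) for those with 1 to 5, 5.88 (5.32 to 6.57) with 6 to 10, 6.65 (5.98 to 7.57) with 11 to 20 and 9.01 (7.57 to 10.1) with 21 or more. The largest step was from 0 members to 1 to 5. The intervals did not overlap up to 6 to 10 members, and from there on those of neighbouring groups overlapped or touched. Genes with more members also had longer loci, with a median of 23.9 kb at 0 members and 199 kb at 21 or more, and the part of locus length in this order was not tested. They also had more room for members, with a median of 646 distal positions within 100 kb at 0 members and 1657 at 21 or more. The part of this room was not tested either.

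The order was much weaker among genes with a trivalent position near an end. For genes with a trivalent position within 2 kb of either end, the median FPKM was 8.90 (8.38 to 9.63) with 0 members and 11.4 (9.99 to 12.96) with 21 or more, and the share of genes with an FPKM of at least 1 was 83.7% (82.4 to 84.9) and 83.7% (79.6 to 87.3). For genes without such a position, the share was 12.5% (11.7 to 13.3) with 0 members, 30.6% (28.8 to 32.4) with 1 to 5, 43.1% (39.0 to 47.3) with 11 to 20 and 59.1% (52.4 to 65.4) with 21 or more. The median FPKM of these genes was 0.00819 (0.00661 to 0.0101) with 0 members and 2.81 (1.56 to 4.50) with 21 or more. Genes are not replicates, and the same member can be counted for several genes.

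The domains with the most members were compact in some places and spread in others. On chromosome 2 from 106898642 to 106901926, 18 of 22 positions in 3.29 kb were members, which was the densest of the 10. Its nearest named gene was UXS1, an enzyme that makes UDP-xylose, 87.7 kb away, at an FPKM of 46.9 (run 1) and 47.3 (run 2). On chromosome 18 from 67019977 to 67027981, 20 of 44 positions were members, 40.1 kb from DOK6, an adaptor of receptor tyrosine kinases, with an FPKM of 8.95 and 9.68. On chromosome 5 from 92222267 to 92263791, 20 of 211 positions were members, and the nearest named loci were FLJ42709 at 481 kb (FPKM 0.614 and 0.708) and NR2F1, an orphan nuclear receptor, at 654 kb (7.36 and 6.99). The nearest gene was thus well expressed for the first of these domains, whereas the last lay in a long stretch without named genes.

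Several other large domains had expressed genes around them. On chromosome 4 from 69596582 to 69617561, 19 members lay between UGT2B15 (60.2 kb away, FPKM 1.06 and 0.723) and UGT2B10 (64.1 kb away, FPKM 31.2 and 31.4), which encode enzymes that conjugate drugs and steroids with glucuronic acid. A domain of 17 members on chromosome 1 from 56879344 to 56903191 lay 57.2 kb from PPAP2B, a lipid phosphatase, with an FPKM of 31.8 and 32.2. A domain of 19 members on chromosome 9 from 15323112 to 15356026 lay 15.8 kb from TTC39B (7.95 and 8.79), a gene linked to lipoprotein metabolism, and 66.8 kb from PSIP1 (21.01 and 22.8), a chromatin-bound coactivator.

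Others had silent or weakly expressed genes as nearest neighbours, as did the domain near UGT2B15, whose neighbour on the other side, UGT2B10, was expressed. On chromosome 2 from 204676292 to 204684991, 18 of 50 positions were members, 47.5 kb from CTLA4 (0.0513 and 0) and 73.7 kb from CD28 (0.0373 and 0.0420), which encode receptors of T cells, and 116 kb from ICOS, listed at 0 in both runs. All 3 of the nearest genes were thus at or close to 0. A domain of 18 members on chromosome 2 from 127748722 to 127755513 lay 50.1 kb from BIN1, a membrane-bending protein, with 1.01 and 0.8005. On chromosome 18 from 3100997 to 3125901, 17 members lay inside MYOM1, a muscle protein, with 0.311 and 0.450. At 87.6 kb from the MYOM1 domain, LPIN2 had 18.4 and 18.7 and LOC727896, with the same coordinates, 0.469 and 0.356. A domain of 19 members on chromosome 2 from 216544970 to 216578541 lay inside LOC646324, with 0.0113 and 0.0651. Whether a domain acts on its nearest gene was not measured.

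None of the 10 domains had a trivalent position within 1 kb. H3K4me3 or H3K9ac in other combinations was present at 4 positions in or beside each of 4 of them, at 1 position in 2 and at 0 in 4.

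**Figure D4:**
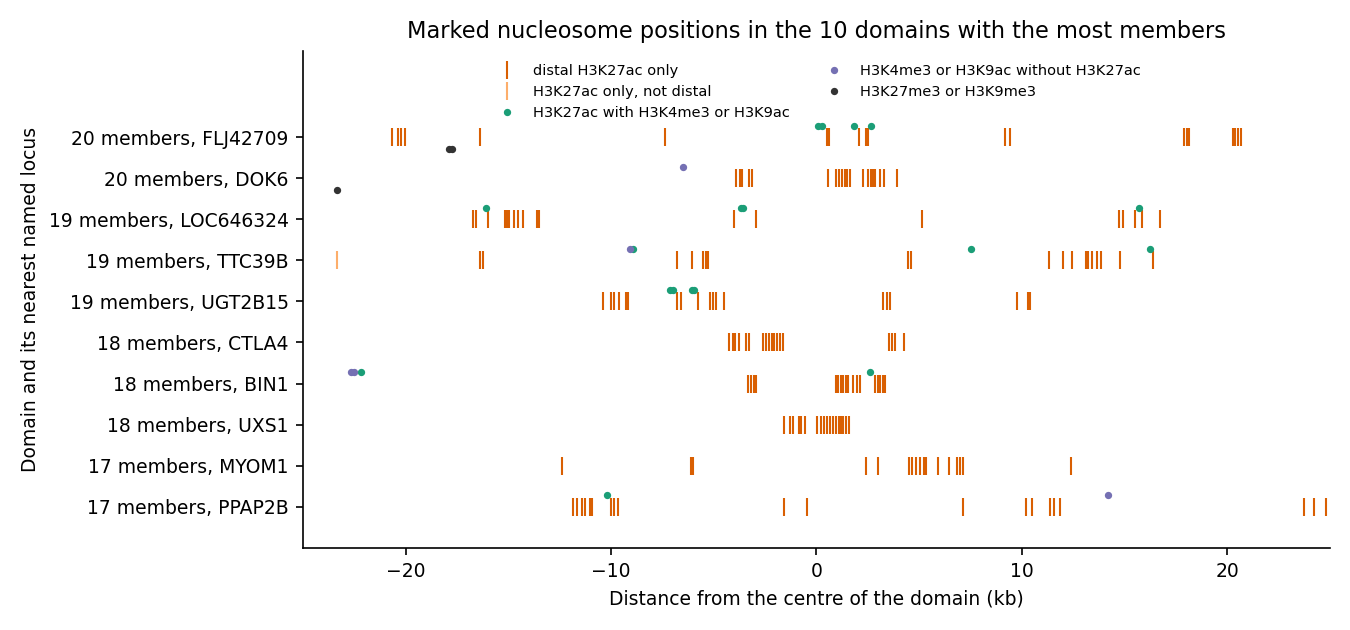
Marked nucleosome positions within 25 kb of the centre (horizontal axis, kb) of the 10 domains with the most members (vertical axis, with the nearest named locus), where ticks are positions with H3K27ac only and dots other marked positions, some of them outside the domain. Ticks crowd within 3.29 kb at UXS1 and spread over 41.5 kb at FLJ42709.

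Genes were then grouped in lists by their roles, and the count in each list is to be read against the 52.3% of all named genes, or 65.3% of those with an FPKM of at least 1, that had a member within 100 kb. Only for hepatocyte transcription factors did the interval of the share lie above 65.3%. Because the room for members differs between genes, the density per 1000 distal positions within 100 kb is given too. It was 3.98 over all named genes, 5.35 over genes with an FPKM of at least 1 and 2.21 over genes under 0.1. Of the genes named in the lists, PROX1, FOXA1, CEBPD, SERPIND1, SREBF1, IER2, NCOA3, BRD3, RPL31, RPL26L1, GRIK4, CHRNE and the olfactory receptors have listed coordinates that are shared with other loci. Part of their counts may therefore belong to neighbours, and distances given for them are to the ends of the shared stretch, not of the gene.

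Transcription factors of hepatocytes had the highest density of the 9 lists. A member was found near 21 of 24 genes, or 87.5% (67.6 to 97.3), with a median of 9.5 members and a density of 10.5 per 1000. PROX1, a homeobox factor of the liver and lymphatics, had 44 members, 10 of them inside its listed locus (chromosome 1, 213991105 to 214214708), and an FPKM of 21.7 (run 1) and 21.5 (run 2). The largest domain there held 11 members among 22 positions, 23.3 kb from the locus. FOXA1, a pioneer factor of endoderm, had 28 members, with an FPKM of 32.4 and 32.3. They included a domain of 12 members 61.3 kb from the end of its shared coordinates (chromosome 14, 38059190 to 38271910). Its distance from FOXA1 itself is not given by these coordinates. CEBPD, a factor of the acute-phase response, had 19 members, all inside a joined stretch of loci, with 11.6 and 12.5.

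Genes of liver metabolism had a density of 8.54 per 1000 and a member near 26 of 34 genes, or 76.5% (58.8 to 89.3). SREBF1, which controls lipid synthesis, had 27 members, the largest domain being 9 members 58.7 kb away, and an FPKM of 12.1 and 11.9. CYP8B1, an enzyme of bile acid synthesis, had 22 members among 485 distal positions, or 45.4 per 1000, with an FPKM of only 0.740 and 0.770. Of these, 12 formed a domain in which 12 of 20 positions were members, 15.7 kb from the gene. SLC10A1, the bile acid uptake transporter of hepatocytes, had 19 members and an FPKM of 0.683 and 0.574, with a domain of 8 members among 15 positions 11.3 kb away. Both of these bile acid genes thus had dense acetylated surroundings at low expression.

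Genes of liver plasma proteins had a density of 7.30 per 1000 and a member near 29 of 42 genes, or 69.0% (52.9 to 82.4), with a median FPKM of 147. APOB, the structural protein of low-density lipoprotein, had 17 members, 11 of them in a domain 22.8 kb from the locus, with 1237 and 1265. AMBP, the precursor of a plasma protease inhibitor, had 14 members, 12 of them in a domain 39.5 kb away, with 763 and 757. SERPIND1, a thrombin inhibitor, had 21 members, 20 of them inside joined coordinates, with 103 and 105. ALB and AFP, which are neighbours, each had 12 members within 100 kb, and the largest domain there held 8 members among 20 positions, 56.3 kb from ALB and 88.6 kb from AFP. SERPINA1, the inhibitor of neutrophil elastase, had 9 and TTR, the thyroxine carrier, had 5.

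High expression also occurred without members. APOA2, an apolipoprotein of high-density lipoprotein, had 0 members at an FPKM of 5095 and 5323, and its nearest member lay 175 kb away. It had 177 distal positions within 100 kb, so there was little room for members by the rule. RBP4, the retinol carrier, had 0 members among 546 distal positions with 541 and 531, and FGG, the gamma chain of fibrinogen, had 0 among 582 with 467 and 465. The nearest members were 155 kb from RBP4 and 388 kb from FGG. FGB, the neighbouring beta chain, had 0 as well, with 57.0 and 56.2.

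Immediate early genes, which respond within minutes to growth factors and stress, had a member near 11 of 19 genes, or 57.9% (33.5 to 79.7), at a density of 8.16 per 1000. KLF6, a zinc finger factor, had 28 members, 11 of them in a domain 11.1 kb away, with 19.7 in both runs. JUN, a subunit of AP-1, had 27, of which 13 formed a domain 11.6 kb away, with 17.6 and 17.8. IER2 had 17, of which 12 formed a domain 83.1 kb away, with 13.1 in both runs. All the members near KLF6, JUN and IER2 lay outside the listed loci, as the rule requires there. Every point inside loci this short is within 10 kb of an end.

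Growth factor receptors had a member near 12 of 16 genes, or 75.0% (47.6 to 92.7), at a density of 4.75 per 1000. This density was below the 5.35 of all genes with an FPKM of at least 1. IGF1R, the receptor of insulin-like growth factors, had 29 members, all inside the gene, with an FPKM of 8.96 and 8.86. MET, the receptor of hepatocyte growth factor, had 23, of which 20 were inside the gene, with 15.0 and 13.9. PDGFRB, a receptor typical of mesenchymal cells, had 14 with 2.06 and 1.95.

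Genes of the acetylation and enhancer machinery had a member near 17 of 20 genes, or 85.0% (62.1 to 96.8), at a density of 4.84 per 1000, and all 20 had an FPKM of at least 1. Over all genes with such an FPKM the density was higher, at 5.35. NCOA3, a coactivator of nuclear receptors, had 31 members, the largest domain being 14 members 36.6 kb away, with an FPKM of 23.8 and 24.3. Its relative NCOA2 had 14, all inside the gene, with 10.7 and 10.4, and BRD3, a reader of acetylated histones, had 10 with 9.45 and 9.15.

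Cytosolic ribosomal protein genes, the most highly expressed list with a median FPKM of 985, had a member near 44 of 77 genes, or 57.1% (45.4 to 68.4), and a density of 5.51 per 1000. Both values were lower than those of hepatocyte transcription factors, whose median FPKM was 13.2, although the intervals of the shares overlapped at their ends. The genes with the most members were RPL31 with 27, of which 15 lay inside its joined coordinates (FPKM 1571 and 1655), RPL26L1 with 24 (44.4 and 40.1) and RPL37A with 17 (2929 and 3134). Near RPL37A, 10 of 11 positions in 1.86 kb were members, 67.5 kb from the gene.

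Lists of genes mostly silent in this line had the lowest densities. For reading their counts, 34.3% (33.2 to 35.4) of all named genes under an FPKM of 0.1 had a member within 100 kb. Neurotransmitter receptor symbols had a member near 32 of 82 genes, or 39.0% (28.4 to 50.4), at 1.43 per 1000. The interval of this share includes that of all genes under an FPKM of 0.1. Of the 82 symbols, 6 do not encode such receptors. GRIK4, a kainate receptor subunit, had 15 members with an FPKM of 2.14 and 1.63, CHRNE had 14 with 0.512 and 0.684 and joined coordinates, and CHRNB3 had 13 and was listed at 0 in both runs. Olfactory receptors had a member near 32 of 367 genes, or 8.72% (6.04 to 12.1), at 1.28 per 1000. The highest count, 34, was shared by OR9Q1, OR6Q1 and OR9I1, which have the same listed coordinates on chromosome 11 from 57791352 to 57949038 and are listed at 0, so it is 1 region and not separate genes.

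**Figure D5:**
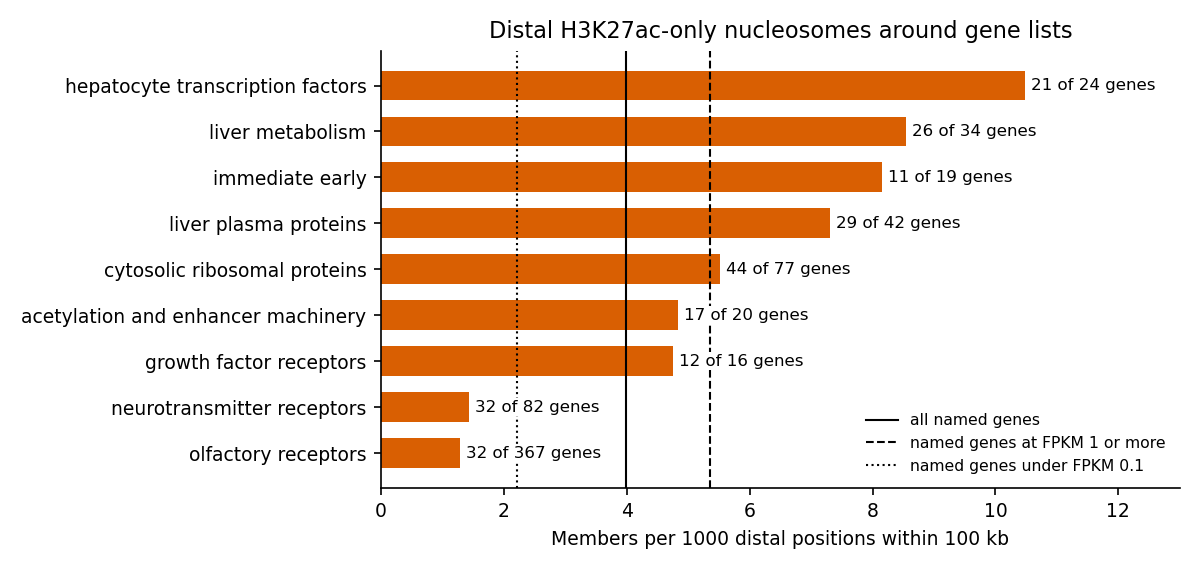
Members per 1000 distal positions within 100 kb (horizontal axis) for 9 gene lists (bars), with the number of genes that had at least 1 member, and vertical lines for all named genes, for genes with an FPKM of at least 1 and for genes under 0.1. Hepatocyte transcription factors were at 10.5 and olfactory receptors at 1.28, against 3.98 for all named genes.

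Loci listed without a gene name were found beside some members. Most of them were under an FPKM of 1, which was reached by 114 of 788 with a member within 1 kb and 332 of 5940 without one. Of the members, 9.40% (9.07 to 9.73) lay in or within 1 kb of an unnamed locus, against 4.63% (4.62 to 4.65) of the distal positions with no mark and 19.6% (18.8 to 20.4) of the distal trivalent positions. Unnamed loci with an FPKM of at least 1 accounted for 619 members, or 2.04% (1.88 to 2.20), against 0.708% (0.703 to 0.713) of the distal positions with no mark and 5.56% (5.11 to 6.03) of the distal trivalent positions. Seen from the loci, 291 unnamed loci with both ends over 10 kb from named ends had a member within 1 kb, and 14.1% (10.3 to 18.6) of them had an FPKM of at least 1, against 4.95% (4.19 to 5.80) of the 2912 such loci without a member. The loci with a member were longer, with a median of 8.13 kb against 1.53 kb, and the part of length in this was not tested.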

How the data were processed

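The authors aligned reads to hg19 (BWA, and TopHat2 2.1.0 for RNA-Seq, per the submitters' processing notes), called nucleosome positions with DANPOS and called histone peaks at these positions with NUCLIZE, with limits of 0.01 on the P value and the FDR and of 4 on the fold over input. They deposited coordinates only, without heights. The authors deposited RNA-Seq values as FPKM in 2 columns, whose mean was used. Their fold change, p-value and q-value columns were not used.

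Marks were assigned by the shared identifier, and all peaks matched (0 did not). Each position was listed as 140 bp long, and 94 mitochondrial positions were left out of distal counts. Distances were measured from midpoints to the ends of 23303 named loci. Gene values used 1 row per symbol, the one with the highest FPKM, on 24 chromosomes (20261 genes). The log2 FPKM of both columns had a Pearson r of 0.989 across 14523 genes above 0 in both, which are not independent replicates. The members and gene lists were chosen with earlier results of these data known. Named genes were the nearest to the 10 domains with the most members, the 3 with the most members in each list, the 3 plasma protein genes of highest FPKM without a member, and cell type markers. Comments on other genes near these domains were added after their values were seen. Median intervals came from order statistics. The distance and neighbour counts were tested on simulated data. Of the listed symbols, 10 were not found (APOA5, CFB, ORM1, ORM2, UGT1A1, FASN, IER3, KMT2C, KMT2D and MLL2) and were left out. The alternatives were other distal limits, windows, sets of loci and genes, and 1 position per domain. The planned GC content and motif counts were not run, since no hg19 sequence was used here. Calculations used scipy 1.17.1, pandas 2.3.3 and numpy 2.4.6 in Python 3.11.15, and figures matplotlib 3.10.9.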

Additional observations from a re-analysis of the deposited data

How the results depend on the processing

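No paired analysis was possible because each assay has 1 sample, and no sample could be left out. The values of other positions were recomputed for the spacing only. With a limit of 50 kb there were 13887 members, of which 84.5% had another H3K27ac position and 29.3% had H3K4me3 or H3K9ac within 1 kb, and 58.3% lay inside a named locus. With a window of 500 bp the first of these shares was 76.2% and the second 20.3%, and with 2 kb they were 86.4% and 38.3%. With 1 position per domain, chosen after seeing the data, 25.3% had H3K4me3 or H3K9ac within 1 kb and 65.3% lay inside a named locus, and on autosomes alone 62.0% did. For unnamed loci, the share was 8.49% by overlap only and 10.9% within 5 kb. The median distance to the neighbouring position was 150 bp for the nearer and 215 bp for the farther neighbour, and 197 bp without overlapping pairs, against 148, 216 and 200 bp for distal positions with no mark. For genes with 0 members, the median FPKM was 0.166 with a window of 50 kb, 0.0474 with 200 kb, 0.0496 for genes with their own coordinates and 3.58 for genes above 0 in both columns, a filter that removes genes at 0. For genes with 11 or more members, it was 8.33, 6.09, 8.41 and 9.78, against 7.28 as first computed, so genes with 11 or more members had the higher median under each of these settings. Another 10 alternatives stayed within 1.5 times the count or within the interval. The sequence comparison was not run, for want of a genome of the build. What these lists lack, peak heights and read counts, limits all values, since a mark just below the calling threshold counts as absent.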

Other observations

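The density of members differed between chromosomes. It was 2.60 per 1000 distal positions (2.57 to 2.63) in the whole genome and highest on chromosome 22, at 5.33 (4.93 to 5.76), followed by chromosome 19 with 4.61 (4.26 to 4.98) and chromosome 17 with 4.45 (4.21 to 4.71). The interval of chromosome 19 overlapped with both others. Among the autosomes it was lowest on chromosome 4, at 1.60 (1.52 to 1.69). Chromosome X had 1.37 (1.26 to 1.48), and chromosome Y, the lowest of all, had 0.852 (0.614 to 1.15) with 42 members. The trivalent density was highest on chromosome 19, at 2.91 per 1000, where there were 407 trivalent positions to 645 members, while chromosome 18 had 153 to 828.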
